A study of Mus musculus with 6 samples.

Results

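The stathmins and the collapsin response mediator proteins (CRMPs) are small families of neuronal proteins that act on microtubules, described here through 9 transcripts chosen by gene symbol: Stmn1, Stmn2, Stmn3, Stmn4, Crmp1, Dpysl2, Dpysl3, Dpysl4 and Dpysl5. All 9 were found among the 45777 genes of the deposited table, and all 9 passed the filter on low counts. The libraries came from cultured dorsal root ganglion (DRG) neurons, the sensory neurons beside the spinal cord, of wild-type C57BL/6 mice. The labels describe them as females aged 8 weeks. In 3 libraries the cultures received PBS, the vehicle control, and in 3 they received recombinant oncomodulin (ONCM), a small protein that binds calcium and can promote axon growth, at 100 ng/ml. Both groups were treated for 12 hours and carried no transgene or deletion that the labels name. The labels number the replicates as biological but tie them to no separate culture or animal, so the p-values measure only the spread between these libraries, which may be technical.

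Stathmins bind the alpha- and beta-tubulin dimers from which microtubules are built, keep them out of the polymer and promote microtubule shrinkage, and phosphorylation releases the tubulin. Stmn1 is the cytosolic form found in many cell types, while Stmn2, Stmn3 and Stmn4 are mainly neuronal and carry an N-terminal extension whose cysteines are palmitoylated, which anchors them to Golgi membranes and vesicles that travel into axons and growth cones. CRMPs are cytosolic phosphoproteins related to dihydropyrimidinase. Dpysl2 encodes CRMP2, which binds tubulin dimers, promotes axon growth and relays the repulsive signal of semaphorin 3A. CRMPs are abundant in growing neurons.

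The feature that divides the stathmins is visible at the start of their coding sequences. The first 90 coding bases are given for the GENCODE transcripts Stmn1-201, Stmn2-201, Stmn3-201 and Stmn4-201 (build GRCm38), 5′ to 3′ on the coding strand, with cysteine codons in capitals. Each stretch spans 2 coding exons, at chr4:134470163-134470743 (plus strand), chr3:8509612-8541911 (plus), chr2:181309172-181314212 (minus) and chr14:66354433-66355662 (plus).
Stmn1: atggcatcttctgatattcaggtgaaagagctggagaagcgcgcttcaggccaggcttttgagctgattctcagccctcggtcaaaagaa
Stmn2: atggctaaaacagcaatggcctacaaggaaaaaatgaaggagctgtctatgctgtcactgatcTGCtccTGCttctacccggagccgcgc
Stmn3: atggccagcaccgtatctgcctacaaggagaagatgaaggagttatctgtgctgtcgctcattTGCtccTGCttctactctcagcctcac
Stmn4: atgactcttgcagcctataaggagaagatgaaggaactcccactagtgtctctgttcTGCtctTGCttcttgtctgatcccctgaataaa
Cysteine codons stood at positions 22 and 24 of Stmn2 and Stmn3 and at positions 20 and 22 of Stmn4, counted from the start codon. Stmn1, the shortest of the 4 with 149 codons before the stop, held 0 cysteine codons over its whole coding sequence. Stmn2, Stmn3 and Stmn4 had 179, 180 and 189 codons.

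Library totals ran from 53770820 to 64477014 counts. Neuron markers were all present, and their summed level was 22976 to 23885 CPM (counts scaled to a common library size, with TMM factors) with PBS and 20186 to 21326 with ONCM. Of these 12 markers 9 fell and 2 rose at an adjusted p under 0.05 in edgeR, where 24.4% of all tested genes fell and 23.9% rose. The cultures also held markers of other cells, none of whose listed genes was at 0 in every library. Schwann cell markers summed to 3618 to 3687 CPM with PBS and 3767 to 3918 with ONCM, satellite glia markers to 1857 to 1926 and 1896 to 2050, fibroblast markers to 295.8 to 299.9 and 429 to 448, endothelial markers to 131.8 to 134.8 and 162 to 172, macrophage markers to 45.7 to 50.2 and 153.7 to 162.6, and markers of dividing cells to 13.5 to 14.7 and 12.2 to 12.6. The part of these markers in the results was not tested. Against the label of female mice, the Y-linked transcript Ddx3y was counted in every library, with 60.5 ± 2.17 CPM in controls and 16.1 ± 0.932 CPM after ONCM (SD, n = 3 per group), and the X-linked Xist stood at 0.530 ± 0.0525 and 477 ± 55.8 CPM. The groups did not overlap in either transcript and no comparison within 1 such class of libraries is possible, so treatment and the source of the cells cannot be told apart for any value below. Fewer cells of a type and less RNA per cell also cannot be told apart in these whole-culture libraries.

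Of the 9 members 6 rose with ONCM, 0 fell and 3 did not pass, by edgeR's quasi-likelihood test with Benjamini-Hochberg adjustment over all 20354 genes tested. Changes were common in these libraries: 48.3% of all tested genes passed, 23.9% raised and 24.4% lowered, with a median log2 fold change of -0.0021 over all genes and 0.44 over the 9 members. The members raised were Stmn4, Stmn2, Crmp1, Dpysl5, Stmn1 and Dpysl3, in order of the size of the change, and Stmn3, Dpysl2 and Dpysl4 did not pass. In 7 of the 9 every ONCM library lay above every PBS library in CPM, against 27.6% of all tested genes that did so (28.0% lay wholly lower, 55.6% in either direction). DESeq2 also called these 6 raised and 0 lowered, with 30.8% of its tested genes called, 15.7% raised and 15.2% lowered. TPM values divide by transcript length and by the sum over all genes. With limma on log2(TPM + 1), 5 members were raised and 1, Dpysl2, was lowered, where 48.9% of genes passed, 18.3% raised and 30.6% lowered.

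**Figure D1:**
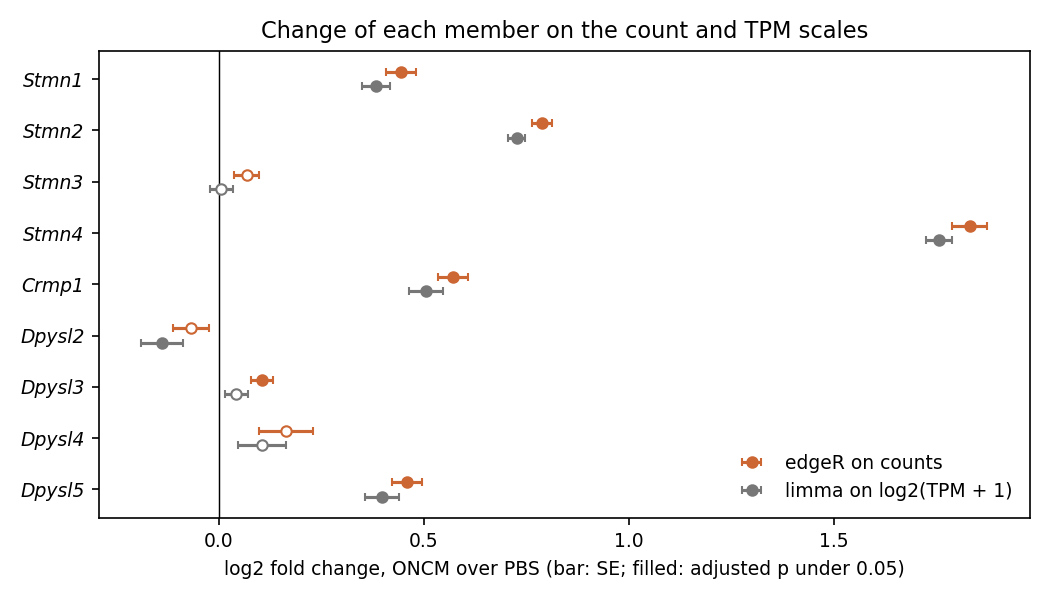
Log2 fold change of each of the 9 members, ONCM over PBS, with the standard error as a bar, from edgeR on counts and from limma on log2(TPM + 1); filled points had an adjusted p under 0.05. Stmn4 lies farthest to the right at 1.83, Stmn2 follows at 0.79, and Dpysl3 and Dpysl2 are the members whose fill differs between the scales.

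Gene positions are on GRCm38. Stmn4 (chromosome 14, 66344210 to 66361680), the scarcest stathmin in these cultures, had the largest change. PBS libraries held 20.7, 20.6 and 21.8 CPM, and ONCM libraries 72.1, 75.7 and 76.8 CPM. The lowest ONCM library was thus far above the highest PBS library, and the spread within each group was small beside the gap between them. The means of 21.0 ± 0.642 and 74.9 ± 2.47 CPM (SD, n = 3 per group) gave a 3.56-fold rise, or 1.83 on the log2 scale (SE 0.04, adjusted p = 2.92e-16 in edgeR). Of all tested genes 2.23% had a larger rise. The change rested on 1154 to 1340 reads per library with PBS and 3878 to 4547 with ONCM.

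Stmn2 (chromosome 3, 8509527 to 8561604), also called SCG10 and known from axon growth and maintenance, was the most abundant member. Its level was 1601, 1626 and 1647 CPM with PBS and 2774, 2797 and 2842 CPM with ONCM. All ONCM libraries were higher and the groups were tight, at 1625 ± 22.9 and 2805 ± 34.9 CPM (SD, n = 3 per group). The 1.73-fold rise was 0.79 on the log2 scale (SE 0.02, adjusted p = 1.04e-14 in edgeR), and 8.70% of tested genes had a larger one. By TPM, Stmn2 ranked 34, 34 and 37 among all genes without ONCM and 18, 18 and 19 with it. It took 0.161% to 0.166% of all counts with PBS and 0.278% to 0.282% with ONCM.

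Stmn1 (chromosome 4, 134468320 to 134473843), the form without the membrane anchor, stood at 178, 193 and 199 CPM with PBS. With ONCM it stood at 261, 253 and 261 CPM. The groups did not overlap, and the log2 fold change was 0.44 (SE 0.04, adjusted p = 1.01e-08 in edgeR). Stmn1 is also a marker of dividing cells, while the 8 listed genes of cell division summed to at most 14.7 CPM in any library. Of those 8 genes 1 rose and 3 fell, where 23.9% of all tested genes rose and 24.4% fell. The part of these 8 genes in the Stmn1 result was not tested. Of the 50-base stretches of the annotated Stmn1 coding transcripts 25.5% also occurred in transcripts of other genes, 24.2% in the predicted gene Gm11223, so its count may hold or lack reads from such copies. The other 8 members shared 0 such stretches with any other annotated transcript.

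Stmn3 (chromosome 2, 181306459 to 181314500), or SCLIP, was the second most abundant member per length (TPM), behind Stmn2, and did not pass. Its PBS values were 497, 525 and 518 CPM, and its ONCM values 549, 516 and 548 CPM. One ONCM library lay below 2 of the PBS libraries, so the groups overlapped. Its log2 fold change was 0.07 (SE 0.03, adjusted p = 0.0831 in edgeR), and on the TPM scale the means were 1146 ± 27.4 and 1151 ± 32.6 (SD, n = 3 per group). Without ONCM replicate 2 it passed in edgeR, at 0.10 (adjusted p = 0.0313).

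Crmp1 (chromosome 5, 37242058 to 37292163), a CRMP that takes part in semaphorin 3A signalling, had the largest change in its family. PBS libraries held 149.9, 146.1 and 137.6 CPM, and ONCM libraries 206, 214 and 223 CPM. The groups did not overlap, and the log2 fold change was 0.57 (SE 0.04, adjusted p = 4e-10 in edgeR). Crmp1 overlaps the gene Evc over 3194 bases, and Evc had 113 to 172 counts in a library, against 7955 to 12881 for Crmp1. Whether reads from this overlap entered the Crmp1 count was not tested.

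Dpysl5 (chromosome 5, 30711564 to 30799369) encodes CRMP5, a family member distant in sequence from the others. Its level was 117, 126 and 117 CPM in the controls, while treated libraries had 158, 169 and 168 CPM. The ONCM libraries were again all higher, with a log2 fold change of 0.46 (SE 0.04, adjusted p = 7.64e-09 in edgeR), close in size to that of Stmn1.

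Dpysl3 (chromosome 18, 43320979 to 43438286) encodes CRMP4 and was the most abundant CRMP. Its values were 613, 619 and 605 CPM with PBS and 654, 669 and 653 CPM with ONCM. The groups did not overlap in CPM, but the rise was only 1.08-fold, a log2 fold change of 0.10 (SE 0.03, adjusted p = 0.00261 in edgeR). The TPM ranges did overlap, and the log2 fold change was 0.04 (SE 0.03, limma adjusted p = 0.248).

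Dpysl2 (chromosome 14, 66802864 to 66911041), for CRMP2, was the only member with a lower mean in the ONCM group. Controls had 119, 127 and 129 CPM and treated libraries 111, 122 and 126 CPM, so the groups overlapped. The log2 fold change was -0.07 (SE 0.04, adjusted p = 0.231 in edgeR). On the log2(TPM + 1) scale Dpysl2 passed as lowered, at -0.14 (SE 0.05, limma adjusted p = 0.0432), and it also passed in edgeR without ONCM replicate 3, at -0.11 (adjusted p = 0.0419). Dpysl2 overlaps the gene Pnma2 over 9453 bases, and Pnma2 had 2582 to 4206 counts against 5952 to 7729 for Dpysl2. This overlap is one of gene spans, introns included. Of 4471 stretches of the annotated Dpysl2 coding transcripts, of the length used for Stmn1, 0 occurred in transcripts of other genes. The strand setting of the counting is not given in the sources used here. Whether other reads from the overlap entered the Dpysl2 count was not tested.

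Dpysl4 (chromosome 7, 139085981 to 139101795), for CRMP3, was the scarcest of the 9. PBS libraries had 12.5, 11.8 and 11.7 CPM, against 13.9, 12.6 and 13.8 CPM after ONCM. The ranges did not meet, but only narrowly, and the log2 fold change of 0.16 (SE 0.07) missed the threshold with an edgeR adjusted p = 0.0504. It passed with DESeq2's size factors in edgeR (adjusted p = 0.0428), under the stricter filter on low counts (0.049) and without ONCM replicate 2 (0.0293). In the other 12 of 15 alternatives Dpysl4 did not pass. Its TPM ranges overlapped, and on log2(TPM + 1) the limma adjusted p was 0.168.

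Per length, as TPM, the members differed widely in level. With PBS the order was Stmn2 at 2166 ± 13.9, Stmn3 at 1146 ± 27.4, Stmn1 at 455 ± 22.1, Dpysl3 at 286 ± 4.94, Crmp1 at 122 ± 6.26, Dpysl2 at 69.9 ± 2.77, Dpysl5 at 58.7 ± 2.39, Stmn4 at 36.9 ± 0.646 and Dpysl4 at 11.3 ± 0.443 TPM (SD, n = 3). With ONCM the first 5 kept their places, at 3583 ± 25.9, 1151 ± 32.6, 593 ± 8.48, 295 ± 7.25 and 173 ± 5.42 TPM. Stmn4 at 127 ± 1.46 moved up to the sixth place, ahead of Dpysl5 at 77.7 ± 2.69 and Dpysl2 at 63.5 ± 3.98, and Dpysl4 remained last at 12.3 ± 0.595 TPM. No neighbours in either order overlapped between libraries. The exchange of places between Dpysl2 and Dpysl5 was seen in all libraries, with 0.841 ± 0.0391 Dpysl5 transcripts per Dpysl2 transcript with PBS and 1.23 ± 0.0426 with ONCM, where the ratio depends on the transcript lengths the authors used.

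**Figure D2:**
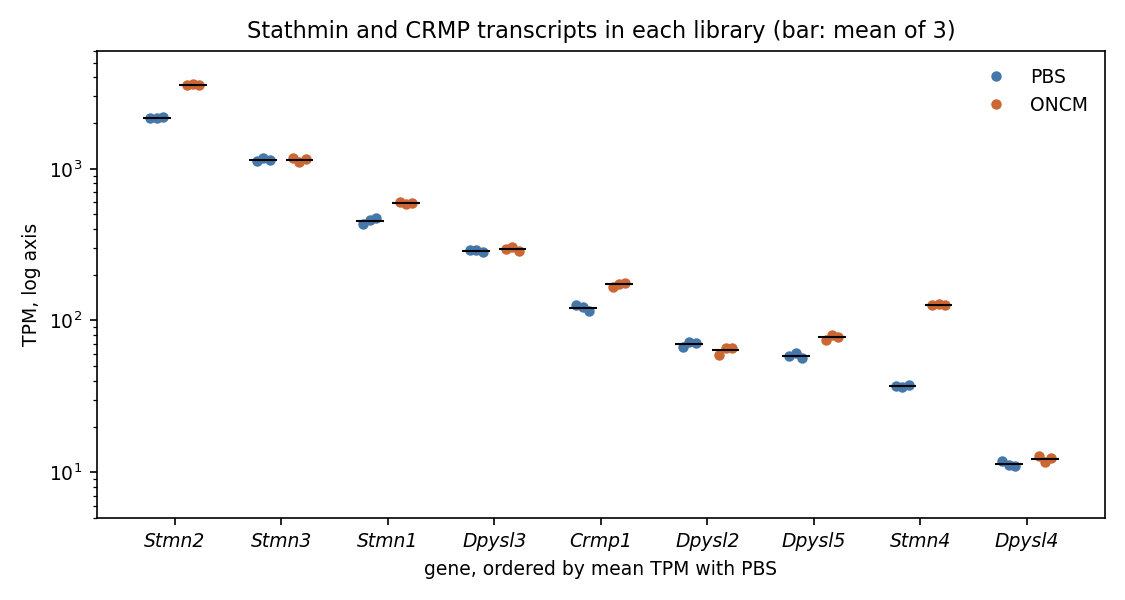
TPM of the 9 members in each library on a log axis, with the genes in the order of their mean with PBS, 1 point per library and a bar at the mean of 3. Stmn2 lies at the top with 2166 TPM with PBS and 3583 TPM with ONCM, and Stmn4 shows the widest gap, from 36.9 to 127 TPM.

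Summed over the family, stathmin transcripts went from 3737, 3836 and 3838 TPM with PBS to 5468, 5441 and 5453 TPM with ONCM. CRMP transcripts went from 553, 556 and 535 TPM to 608, 635 and 622 TPM, a smaller step. Because members changed by different amounts, the makeup of each family differed between the groups. Stmn2 made up 57.6%, 56.5% and 56.8% of stathmin TPM with PBS and 65.1%, 66.4% and 65.6% with ONCM. Stmn3, whose own level did not pass, went from 30.1% ± 0.384 to 21.1% ± 0.546 of the family (SD, n = 3 per group). Stmn1 went from 11.9% ± 0.412 to 10.9% ± 0.129 although its level rose, and Stmn4 from 0.970% ± 0.0238 to 2.33% ± 0.0324. The ratio of Stmn2 to Stmn3 was 1.92, 1.85 and 1.90 with PBS and 3.01, 3.23 and 3.10 with ONCM.

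In the CRMP family Dpysl3 held the largest share in each library, at 52.3% ± 0.24 of the TPM with PBS and 47.5% ± 1.05 with ONCM. Crmp1 went from 22.2% ± 0.773 to 27.8% ± 0.606, Dpysl5 from 10.7% ± 0.287 to 12.5% ± 0.164 and Dpysl2 from 12.8% ± 0.645 to 10.2% ± 0.463 (SD, n = 3 per group). Dpysl4 held 2.07% ± 0.0687 and 1.98% ± 0.138, with overlapping ranges. Shares within a family depend on each other and are given as a description, with no test.

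**Figure D3:**
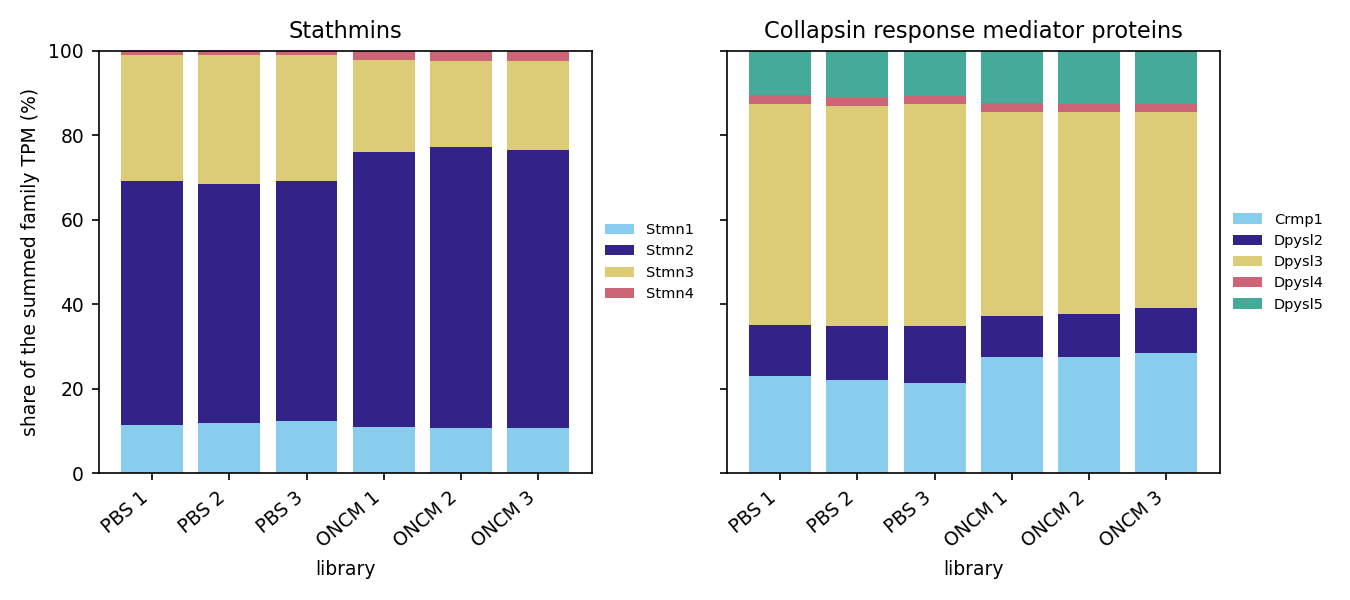
Share of each member in the summed TPM of its family, in percent, for each of the 6 libraries; bars add to 100%. The Stmn2 segment is taller in the ONCM libraries (65.7% on average) than in the PBS libraries (56.9%), and the Stmn3 segment is shorter (21.1% and 30.1%).

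The genes below were listed by their known link to these families, after earlier results of these data had been seen. Tubulin genes, which encode the dimers that stathmins and CRMP2 bind, rose in 11 of 12 cases, with Tuba4a not passing (adjusted p = 0.0502 in edgeR, log2 fold change -0.07) and a median log2 fold change of 0.75, against 23.9% raised among all genes. With 7 of the alternatives 1 tubulin gene was lowered: on both TPM scales, with DESeq2, with library totals in place of TMM, without the filter on low counts, without chromosomes X, Y and MT, and without ONCM replicate 3. Tuba1a rose from 1583 ± 32.6 to 3441 ± 63.7 CPM, Tubb2b from 268 ± 1.15 to 744 ± 41.7 CPM and Tubb6 from 42.2 ± 2.15 to 158 ± 9.96 CPM (SD, n = 3 per group). Their edgeR adjusted p-values were 1.89e-16, 2.92e-16 and 5.14e-16. Summed TPM of the tubulin genes went from 11180 ± 113.7 to 19531 ± 429. Stathmin transcripts per 100 tubulin transcripts were therefore lower with ONCM, at 33.6, 33.9 and 34.5 with PBS and 28.4, 28.2 and 27.2 with ONCM. CRMP transcripts per 100 tubulin transcripts stood at 4.98, 4.92 and 4.81 and at 3.15, 3.29 and 3.11. Neither ratio overlapped between the groups.

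Among 15 tested kinases and phosphatases reported to act on stathmins 3 rose, 6 fell and 6 did not pass, with a median of 0.01, where 23.9% of all tested genes rose and 24.4% fell. The 3 raised were Uhmk1, Camk4 and Ppp2ca. Uhmk1, a kinase that phosphorylates stathmin, rose 1.45-fold from 609 ± 14.6 to 884 ± 31.8 CPM. Mapk10 (JNK3) and Prkacb, a catalytic subunit of protein kinase A, fell by 0.47 and 0.48 on the log2 scale, to 237 ± 3.70 and 202 ± 4.51 CPM (SD, n = 3; edgeR adjusted p = 1.46e-10 and 1.36e-10). Of the 3 JNK genes Mapk9 fell as well, by 0.33, while Mapk8 had a log2 fold change of 0.01 (SE 0.04, adjusted p = 0.920 in edgeR). Aurkb was too scarce to test.

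Of 10 genes for CRMP kinases and for activators of the kinase Cdk5, 3 rose, 1 fell and 6 did not pass, with a median of -0.04. The share called was near the 48.3% of all tested genes (23.9% raised, 24.4% lowered). Cdk5r2, an activator of the kinase Cdk5, fell, with 114.7 ± 4.11 CPM in controls and 72.4 ± 5.90 CPM after treatment, or -0.66 on the log2 scale (SE 0.05, adjusted p = 7.28e-09 in edgeR). Cdk5 itself stood at -0.05 and Gsk3b, which follows Cdk5 on CRMP2, at -0.07, and neither passed. The tyrosine kinase genes Fyn and Fes rose by 0.17 and 0.91, Fes from only 1.87 ± 0.0763 to 3.52 ± 0.236 CPM (SD, n = 3 per group), and Gsk3a rose by 0.09. Gsk3a was near the threshold (adjusted p = 0.0402 in edgeR), and its TPM overlapped between the groups. The count of raised genes in this list was 2 on both TPM scales, with library totals in place of TMM and without the filter on low counts. It was also 2 without PBS replicate 1, 2 or 3 and without ONCM replicate 3. The count of lowered genes in it was 4 on both TPM scales and 2 with library totals in place of TMM and without ONCM replicate 2 or 3. Fes is a kinase of blood cells too, and macrophage markers, at most 50.2 CPM with PBS, were at least 153.7 CPM with ONCM. Their part in the Fes value was not tested.

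Semaphorin 3A receptor genes and CRMP partners numbered 2 raised, 5 lowered and 8 not passing of 15, with a median of -0.02. This share of calls, too, was near the 48.3% over all tested genes (23.9% raised, 24.4% lowered). The receptor gene Plxna4 rose 1.71-fold from 116.6 ± 2.98 to 199.4 ± 9.07 CPM, while Plxna2 and the ligand-binding Nrp1 fell by 0.48 and 0.40 on the log2 scale. Numb, an endocytic adaptor that binds CRMP2, and Kif5b, a kinesin heavy chain, fell by 0.49 and 0.33, and Chn1, a Rac regulator, by 0.30. Wasf1, an actin regulator, rose by 0.21. Semaphorin 3A itself, encoded by Sema3a, was barely counted, at 0.312 ± 0.106 and 0.241 ± 0.0547 CPM.

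In the pathway of the kinase DLK, which acts through JNK and on the turnover of axon maintenance proteins including Stmn2, 6 of 9 tested members were lowered and 1 was raised, against 24.4% and 23.9% of all genes, and Mapk8ip3 and Mycbp2 did not pass. Map3k12, the DLK gene, fell, with 76.9 ± 1.11 CPM in controls and 50.8 ± 0.339 CPM after treatment (SD, n = 3 per group), or -0.60 on the log2 scale (SE 0.03, adjusted p = 8.4e-11 in edgeR). Map2k4, a kinase below it, fell by 0.29. Mapk8ip1, also among the 6 lowered, overlapped between the groups in CPM (adjusted p = 0.0286 in edgeR). The count of lowered genes was 5 on both TPM scales and without PBS replicate 1, PBS replicate 2 or ONCM replicate 1. It was 7 when edgeR also fitted the replicate number. Nmnat2, an axon survival factor of short half-life, fell by 0.12, and Sarm1, the enzyme that drives axon degeneration, was the 1 gene that rose, by 0.18 (on both TPM scales it did not pass).

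For the next lists the shares over all tested genes were again 23.9% raised and 24.4% lowered. Of 6 palmitoylation genes 2 rose, 1 fell (2 without PBS replicate 2) and Zdhhc7, Zdhhc15 and Lypla1 did not pass. The palmitoyl transferase gene Zdhhc3 rose 1.30-fold to 138.5 ± 1.69 CPM (SD, n = 3), the thioesterase gene Lypla2 rose by 0.17 on the log2 scale and the lysosomal thioesterase gene Ppt1 fell by 0.35. Among 8 regulators of the members' transcripts 2 rose, 2 fell and Elavl1, Elavl2, Rcor1 and Tardbp did not pass, which is close to those shares. Elavl3 and Elavl4, for neuronal proteins that bind messenger RNA, moved in opposite directions, by 0.55 (SE 0.03, adjusted p = 1.97e-10 in edgeR) and -0.57 (SE 0.05, adjusted p = 1.1e-07 in edgeR). Rest, the repressor of many neuronal genes Stmn2 among them, rose by 0.16 to 27.6 ± 1.61 CPM, its co-repressor gene Rcor2 fell by 0.68, and Tardbp (TDP-43), on which correct splicing of human STMN2 depends, stood at -0.02 and did not pass. The CPM of Rest overlapped between the groups, and the number of regulators raised was 1 with DESeq2, on both TPM scales and without PBS replicate 2, PBS replicate 3, ONCM replicate 1 or ONCM replicate 2. Of the 3 pyrimidine breakdown genes Upb1 and Dpyd fell, by 0.81 and 0.29, at control levels under 10 CPM. The count of these calls was 0 without PBS replicate 3 or ONCM replicate 2 and with DESeq2, and 1 on both TPM scales and without PBS replicate 2 or ONCM replicate 3. Dpys, the enzyme most closely related to the CRMPs, was at 0.665 ± 0.0673 and 0.590 ± 0.0752 CPM.

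**Figure D4:**
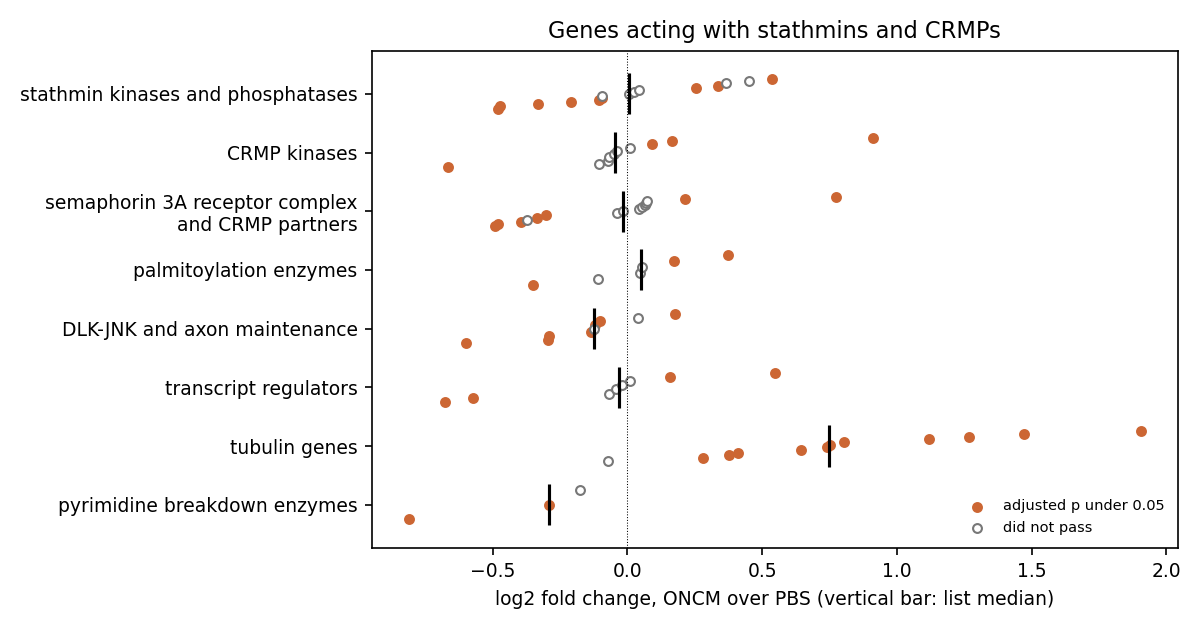
Log2 fold change, ONCM over PBS, of each tested gene in the 8 lists linked to stathmins and CRMPs; filled points had an adjusted p under 0.05 in edgeR and the vertical bar is the list median. Tubulin genes lie to the right, with a median of 0.75, while the other lists have medians between -0.29 and 0.05.

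Over the 6 libraries, the gene nearest to each member in centred log2 CPM was found by the Euclidean distance among 9746 non-member genes with a mean of at least 10 CPM. The nearest to Stmn4 was the interferon-stimulated gene Ifit3, at a distance of 0.0652, whose mean was 153 CPM in controls and 546 CPM after treatment. The nearest to Stmn2 was the cell cycle inhibitor gene Cdkn1a (0.0541), to Crmp1 the galectin gene Lgals9 (0.0471), to Dpysl5 the endoplasmic reticulum gene Wfs1 (0.0532) and to Stmn1 the thioredoxin gene Txn1 (0.0619). For Stmn3, Dpysl2, Dpysl3 and Dpysl4 the nearest were Prdx5, A4galt, Ube2d2a and Rabggta, at 0.0291, 0.0446, 0.0246 and 0.0657. With 2 groups such a distance mainly compares the size of the difference between them. Among the members themselves Stmn3 and Dpysl3 were closest (0.125), followed by Stmn1 and Dpysl5 (0.169).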

How the data were processed

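The members and gene lists were chosen with earlier results of these data known. Raw read counts per gene were used as the authors deposited them, and the TPM values deposited by the authors served for levels and for one alternative test. FPKM columns, also deposited, stayed unused. The submitters' processing notes name the build mm10. Aligner, counter and strandedness: not given in the sources used here. Positions come from a RefSeq table of GRCm38.p6, the same assembly. The test of counts was edgeR 4.0.16 under R 4.3.3 (filterByExpr, TMM, robust quasi-likelihood F-test, no covariate), with Benjamini-Hochberg adjustment over all 20354 genes and a threshold of 0.05. The SE is the log2 fold change divided by the square root of F. Alternatives used DESeq2 1.42.0 and limma 3.58.1, on log2(TPM + 1) and log2(TPM + 0.1) for genes with a mean of at least 0.5 TPM. The edgeR test was tested on simulated data. No pair of replicates agreed within sampling noise (chi-square per degree of freedom 2.76 to 7.09). In each list the 3 genes with the smallest p were named, with others that a small count refers to, and further list genes were added after their values were seen. A comparison of protein sequences was not made.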

Additional observations from a re-analysis of the deposited data

How the results depend on the processing

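The members were tested under 15 alternatives. Stmn1, Stmn2, Stmn4, Crmp1 and Dpysl5 kept their direction and their call in all of them, with log2 fold changes of 0.38 to 0.47, 0.73 to 0.79, 1.76 to 1.86, 0.51 to 0.60 and 0.40 to 0.49. Dpysl3 lost its call on log2(TPM + 1) (0.0427) and on log2(TPM + 0.1) (0.0428), where Dpysl2 passed as lowered (-0.139 and -0.141), so that 1 member was lowered on either TPM scale. Dpysl4 passed with DESeq2's size factors (0.17) and under the stricter filter of a mean of 10 counts in each group (0.166). With 1 library left out, Stmn3 ranged from 0.0391 to 0.0957, Dpysl2 from -0.109 to -0.0154 and Dpysl4 from 0.138 to 0.209. The number of members raised then ranged from 6 to 8, and the number lowered from 0 to 1. Of the calls over all genes 49.5% were rises on counts and 37.5% on log2(TPM + 1), where the median gene stood at -0.06, against -0.0021 on counts. With CPM in place of TPM the difference in family share was 7.13 points for Stmn2, -7.21 for Stmn3, 1.14 for Stmn4, 4.08 for Crmp1 and 2.25 for Dpysl5, against 8.75, -9.03, 1.36, 5.64 and 1.79, because CPM does not divide by length. The replicate numbers showed no sign of pairing the samples (correlations of same-numbered deviations -0.0479, -0.0356 and 0.0568, other pairs -0.0738 to 0.110). With 3 libraries per group this check cannot exclude pairing. With the replicate block 4733 genes rose and 4864 fell, against 4869 and 4960, with no member's call changed. For the 8 lists, 29 of 240 recounts moved by over 1.5 times, each a count of at most 2 genes at first. For the other changes the cause was not tested. Of the 9 members Dpysl4 had the lowest read counts, at 662 to 809 per library, and their part in its calls was not tested.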

Other observations

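Promoter windows of the members, 250 bases upstream of an annotated start, came from RefSeq on GRCm38.p6. Those on chromosome 18, where Dpysl3 lies, were left out. Windows were then matched for 3 of the 9 members, Stmn3, Crmp1 (2 starts) and Dpysl5. None of these 4 windows held the AP-1 letters TGANTCA or the STAT letters TTCNNNGAA on either strand, where N is any base; matches of both motifs were counted separately, overlap allowed. Of all 32851 windows of that length 6.75% held the first and 7.02% the second. The share of G and C was 75.6% and 59.6% in the Crmp1 windows, 62.8% in that of Dpysl5 and 48.8% in that of Stmn3, against a median of 52.4%. This is a description of the letters in these windows.

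Stmn4 and Dpysl2 lie on the same chromosome, with Stmn4 ending at 66361680 and Dpysl2 starting at 66802864 on chromosome 14, and had log2 fold changes of 1.83 and -0.07.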
